A study of Mus musculus with 6 samples.

Results

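Sox genes encode transcription factors that bind DNA through an HMG box, and 9 of them (Sox4, Sox5, Sox6, Sox9, Sox11, Sox12, Sox13, Sox17 and Sox18) were followed here among the 24346 gene symbols measured in primary mouse prostate stromal cells. They form a list of named genes drawn up with earlier results of these data known, and 6 of the 9 reached the mean of 0.5 FPKM over all libraries that was required for testing, as 12022 genes did in all. FPKM, the unit of every level below, scales the fragments of a transcript by its length and by the library's depth, and values of transcript models with the same symbol were summed. The cells came from prostates of C57BL/6 mice aged 8 to 12 weeks. Collagen-coated plates and a medium with 1e-10 M of the androgen dihydrotestosterone were used for both groups, and cells that did not attach within 30 min of replating were discarded. Cells in 3 libraries, called S37A, carried a lentiviral vector with S37A β-catenin, a stabilised form in which a serine that tags the protein for degradation is replaced. Cells in the other 3 libraries, called vector, carried the lentiviral vector alone. The labels give neither the share of cells that took up virus nor the number of cultures or mice behind a group, so the p-values speak only to variation among these 6 libraries, some of which may be technical. The comparison asks which Sox transcripts differ in level when stabilised β-catenin is present.

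Sox proteins bend DNA by contacting its minor groove through the HMG box, at short sites that contain AACAAT or close relatives. Group C (Sox4, Sox11, Sox12) and group F (Sox17, Sox18) carry their own activation domains. Group D (Sox5, Sox6, Sox13) carries none and acts through coiled-coil partners, while Sox9 of group E drives cartilage genes together with Sox5 and Sox6. Several meet the Wnt pathway: Sox9 and Sox17 proteins bind β-catenin, Sox13 binds the TCF1 protein, and TCF and LEF factors, through which β-catenin acts on genes, carry an HMG box themselves. In the prostate Sox9 is known for its role in the epithelial buds of the developing gland, and Sox4 for its raised level in human prostate tumours.

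The start of the HMG box shows how the members are related. The 90 coding bases from the family's signature at the front of the box, taken from GENCODE M21 transcripts and given on the coding strand, are printed with capitals at positions that differ from Sox4.
Sox4: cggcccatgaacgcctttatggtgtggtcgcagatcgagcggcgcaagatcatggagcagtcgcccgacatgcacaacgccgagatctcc
Sox11: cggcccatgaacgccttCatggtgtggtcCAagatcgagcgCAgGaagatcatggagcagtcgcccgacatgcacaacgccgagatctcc
Sox12: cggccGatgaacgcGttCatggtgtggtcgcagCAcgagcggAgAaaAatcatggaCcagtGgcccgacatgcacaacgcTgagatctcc
Sox5: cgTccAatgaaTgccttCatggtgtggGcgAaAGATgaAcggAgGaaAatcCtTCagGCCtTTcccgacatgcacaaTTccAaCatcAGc
Sox6: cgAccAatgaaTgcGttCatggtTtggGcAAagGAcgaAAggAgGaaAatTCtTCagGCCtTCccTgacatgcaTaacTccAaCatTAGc
Sox13: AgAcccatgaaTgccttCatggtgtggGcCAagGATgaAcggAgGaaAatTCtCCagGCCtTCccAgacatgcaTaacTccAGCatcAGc
Sox9: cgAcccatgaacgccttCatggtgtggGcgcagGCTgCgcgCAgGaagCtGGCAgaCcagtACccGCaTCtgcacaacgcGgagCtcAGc
Sox17: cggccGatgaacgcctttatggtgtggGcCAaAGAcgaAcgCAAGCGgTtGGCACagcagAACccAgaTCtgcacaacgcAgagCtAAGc
Sox18: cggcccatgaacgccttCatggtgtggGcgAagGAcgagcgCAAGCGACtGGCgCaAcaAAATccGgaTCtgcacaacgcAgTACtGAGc
Sox11 differed from Sox4 at 6 of the 90 positions and Sox12 at 11, while the other members differed at 26 (Sox9) to 33 (Sox6). Over the 237 bases of the box, Sox4 was 89.5% identical to Sox11 and 85.2% to Sox12, and Sox17 was 82.3% identical to Sox18. The longest run of identical bases between any 2 member transcripts was 48, between Sox4 and Sox11, followed by 33 between Sox4 and Sox12. Reads that fall wholly within such a run cannot be assigned to 1 gene, and the read length is not given in the sources used here.

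The libraries were of like depth. The widths of the authors' confidence intervals corresponded to 41.1 to 47.3 M fragments in S37A and 46.7 to 51.5 M in vector, and 10959 to 10995 genes reached 1 FPKM in S37A libraries against 11074 to 11093 in vector libraries. Ctnnb1, the gene of β-catenin, stood at 132, 144 and 146 FPKM in S37A libraries and at 116, 99.1 and 116 FPKM in vector libraries, and the Wnt target Axin2 at 2.95 ± 0.296 FPKM in S37A and 0.131 ± 0.0385 FPKM in vector (SD, n = 3 each). Stromal markers were abundant, with 12127 to 12211 FPKM summed over 14 genes in S37A libraries and 10514 to 10896 FPKM in vector libraries. Of 13 tested, 6 were higher and 1 was lower in S37A, but only 3 were higher without any 1 S37A library or without vector replicate 3. Of all tested genes, 6.06% were called higher and 19.9% lower in S37A. The cultures also held RNA of other cell types. The summed level of 14 macrophage markers was 62.9 to 70.9 FPKM in S37A and 24.3 to 30.7 FPKM in vector, and 9 of the 11 tested were higher in S37A, among them Lyz2 (36.7 ± 2.63 FPKM in S37A against 14.1 ± 1.91 FPKM in vector). None of these markers was listed at 0 in all libraries, though Aif1 was in vector replicate 2. The part of macrophage RNA in the Sox values was not tested. In RNA from whole cultures, fewer cells of a type and less RNA per cell cannot be told apart.

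Of the 6 tested Sox genes, Sox4 and Sox12 fell in S37A, 0 rose and 4 did not pass the test. Limma with Benjamini-Hochberg adjustment over all genes called 26.0% of the 12022 genes, 19.9% as lower and 6.06% as higher in S37A, so 2 falls among 6 genes stand beside a background of 19.9%. That background depends on scaling: 729 genes were higher and 2393 lower, but 1243 and 978 after median-ratio scaling and 1094 and 957 after quantile normalization. Sox4 and Sox12 were called lower under both scalings. At an unadjusted p under 0.05, 4 of the 6 were lower and 1, Sox9, was higher. The share of all tested genes at this unadjusted cut was not counted, here or for the lists below. These counts therefore have no background to be read against. The groups did not overlap for 5 of the 6 genes, all lower in S37A, where 36.5% of all tested genes did not overlap in that direction. All log2 differences below are S37A minus vector on the log2(FPKM + 1) scale, which understates the change of genes near or below 1 FPKM. The median was -0.14 over the 6 genes and -0.07 over all tested genes. A separate exact two-sided permutation test of each gene's 6 values can give no p below 0.1, and it gave 0.1 for Sox4, Sox11, Sox12, Sox13 and Sox18.

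**Figure D1:**
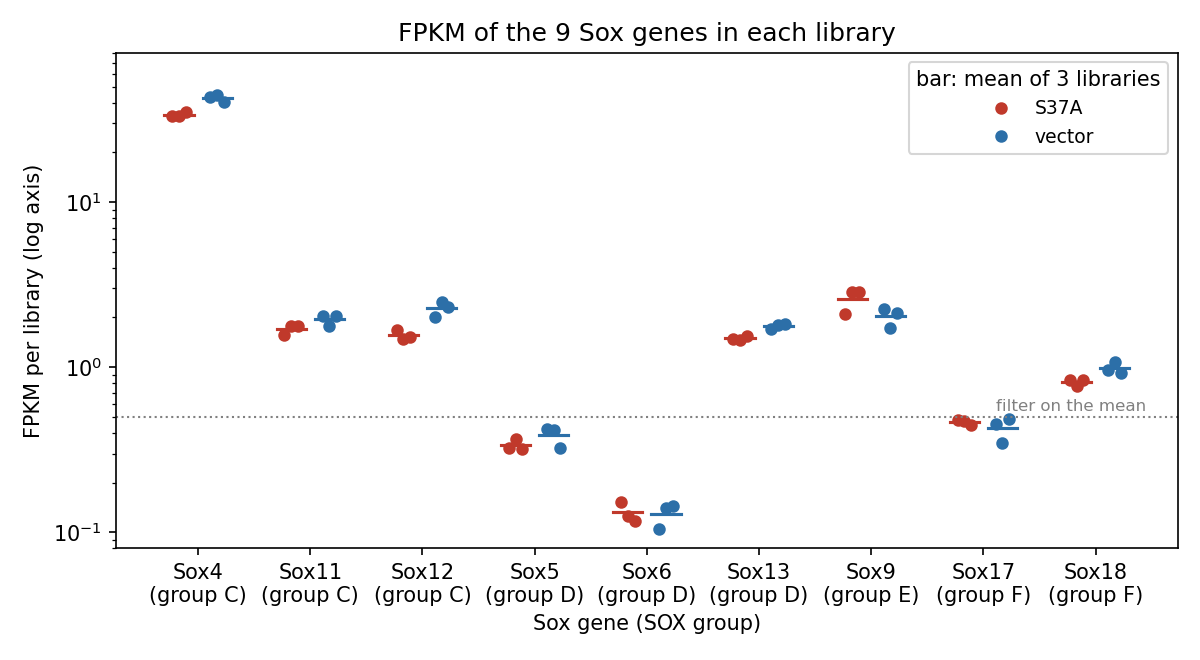
FPKM of each of the 9 Sox genes (log axis) in 3 S37A and 3 vector libraries, ordered by SOX group, with a bar at each group's mean and a dotted line at the mean of 0.5 FPKM required for testing. Sox4 stands at 33.1 FPKM or more in every library, and the highest value of any other member is 2.85 FPKM, for Sox9.

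Sox4, a group C factor of progenitor cells and of many tumours, was the most abundant Sox gene by far and was lower in S37A. It lies on chromosome 13 from 28948919 to 28953713 (mm10, minus strand, protein-coding, GENCODE M21) and overlaps the lincRNA gene Gm26735 on the other strand. The transcript model behind its FPKM is shorter, with 2953 bases from 28950730 to 28953682. Sox4 was measured at 33.5, 33.1 and 35.2 FPKM in S37A libraries and at 43.6, 44.8 and 40.2 FPKM in vector libraries. Every S37A library was below every vector library. The means were 33.9 ± 1.15 FPKM in S37A and 42.8 ± 2.37 FPKM in vector (SD, n = 3 each), so that S37A held 79.2% of the vector level. The log2 difference of Sox4 was -0.33 (SE 0.05, limma adjusted p = 0.00793), and 4.82% of all tested genes had a lower one. Sox4 was called under all 13 alternatives, with adjusted p-values from 0.00748 to 0.0347. Between 3866 and 6442 fragments lay behind its value in a library, so counting error was small beside the difference. Sox4 made up 75.4% of the summed FPKM of all 20 Sox family genes in S37A and 78.1% in vector.

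Sox12, a group C factor that binds like Sox4 but is known as the weaker activator beside Sox11, also fell in S37A. It lies on chromosome 2 from 152393611 to 152398063 (minus strand, protein-coding). Sox12 stood at 1.69, 1.49 and 1.51 FPKM in S37A libraries and at 2.02, 2.48 and 2.30 FPKM in vector libraries. The groups were apart, with the closest pair being S37A replicate 1 and vector replicate 1. The means were 1.56 ± 0.110 FPKM in S37A and 2.27 ± 0.230 FPKM in vector (SD, n = 3 each), or 68.9% of the vector level in S37A. On the log2 scale Sox12 differed by -0.35 (SE 0.07, limma adjusted p = 0.0141). Without S37A replicate 3 it was -0.33 and not called (adjusted p = 0.0541), and over all alternatives the adjusted p ran from 0.0109 to 0.0541.

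Sox11, the third group C member and a factor of developing neurons and mesenchyme, did not pass the test. It lies on chromosome 12 from 27334264 to 27342574 (minus strand, protein-coding). Sox11 stood at 1.56, 1.77 and 1.76 FPKM in S37A libraries and at 2.04, 1.77 and 2.06 FPKM in vector libraries. S37A replicate 2 and vector replicate 2 were almost level, at 1.768 and 1.771 FPKM, so the groups were parted by little. On the log2 scale Sox11 differed by -0.13 (SE 0.06, limma adjusted p = 0.144), which became -0.06 under quantile normalization (adjusted p = 0.543). Within a library, Sox11 was 4.66% to 5.35% of the Sox4 level in S37A and 3.96% to 5.12% in vector. Sox12 was 4.30% to 5.05% of Sox4 in S37A and 4.65% to 5.73% in vector. Both ranges overlap between the groups. A single scaling factor per library leaves these ratios as they are, and they were not recomputed under quantile normalization. The summed level of the 3 group C genes was 37.2 ± 1.17 FPKM in S37A and 47.1 ± 2.29 FPKM in vector, nearly all of it Sox4.

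The promoters of the 3 group C genes are shown because 2 of these genes were called lower. Each runs from 250 bases before to 50 after the start site, 5′ to 3′ on the gene's strand (RefSeq, GRCm38.p6), at chr13:28953650-28953949 for Sox4, chr12:27342669-27342968 for Sox11 and chr2:152397997-152398296 for Sox12, all on the minus strand. Capitals mark CCAAT or its reverse complement ATTGG, a box common in promoters that was chosen after the sequences were seen.
Sox4: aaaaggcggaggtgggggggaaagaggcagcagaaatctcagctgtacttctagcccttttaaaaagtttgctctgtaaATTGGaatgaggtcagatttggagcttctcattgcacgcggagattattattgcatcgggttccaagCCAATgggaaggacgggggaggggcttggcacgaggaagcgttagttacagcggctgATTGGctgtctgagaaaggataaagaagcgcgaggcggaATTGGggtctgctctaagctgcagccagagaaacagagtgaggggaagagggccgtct
Sox11: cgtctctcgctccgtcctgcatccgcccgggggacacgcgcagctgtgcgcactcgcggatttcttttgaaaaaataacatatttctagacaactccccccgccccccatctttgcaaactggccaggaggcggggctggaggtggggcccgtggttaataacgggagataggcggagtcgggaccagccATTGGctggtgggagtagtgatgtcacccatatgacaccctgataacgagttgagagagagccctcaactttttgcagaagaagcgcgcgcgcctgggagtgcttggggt
Sox12: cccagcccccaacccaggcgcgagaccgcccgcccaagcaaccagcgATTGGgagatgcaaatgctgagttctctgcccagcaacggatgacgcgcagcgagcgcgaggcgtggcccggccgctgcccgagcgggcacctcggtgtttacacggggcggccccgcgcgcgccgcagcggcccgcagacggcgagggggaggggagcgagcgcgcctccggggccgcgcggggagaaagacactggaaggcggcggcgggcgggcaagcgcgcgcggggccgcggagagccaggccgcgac
Sox4 held 4 such boxes and Sox11 and Sox12 held 1 each, where 37.4% of 32851 promoters held at least 1. The TCF/LEF core CTTTGA (reverse complement TCAAAG) and the Sox core AACAAT (reverse complement ATTGTT) were searched on both strands. None of the 3 windows held either of them, where 16.0% and 10.7% of all promoters did. Of 11 promoters matched to 6 of the 9 members, 3 held the TCF/LEF core and 1 the Sox core, all of them promoters of Sox6. Sox9, Sox17 and Sox18 had no promoter in the set and were not searched. The Sox12 window had 47 CpG dinucleotides, the Sox11 window 21 and the Sox4 window 12, against a median of 7 over all promoters.

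Sox9, the group E factor of cartilage and of prostate epithelial buds, had a higher mean in S37A but did not pass the test. It lies on chromosome 11 from 112782224 to 112787760 (plus strand, protein-coding). Sox9 stood at 2.10, 2.85 and 2.85 FPKM in S37A libraries and at 2.24, 1.72 and 2.14 FPKM in vector libraries. S37A replicate 1 lay inside the vector range, while the other S37A libraries lay above it. The means were 2.60 ± 0.432 FPKM in S37A and 2.04 ± 0.274 FPKM in vector (SD, n = 3 each), with a log2 difference of 0.24 (SE 0.10, limma adjusted p = 0.116, exact two-sided permutation p = 0.3). Without S37A replicate 1 the difference was 0.35 and was called (adjusted p = 0.0413), and over all alternatives the adjusted p ran from 0.0413 to 0.285. The authors' interval for S37A replicate 1, 1.90 to 2.31 FPKM, did not meet those of S37A replicate 2 (2.59 to 3.12 FPKM) and replicate 3 (2.60 to 3.10 FPKM). The S37A libraries thus differed among themselves by more than counting error.

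Epithelial markers varied between libraries, and Sox9 is a gene that epithelial cells also express. The summed level of 12 such genes was 18.4, 32.9 and 31.2 FPKM in S37A libraries and 26.9, 22.6 and 34.2 FPKM in vector libraries. In each group the library lowest in Sox9, S37A replicate 1 and vector replicate 2, was also the lowest in this sum. Summed over 10 glial markers, the same libraries were lowest in their groups, at 265 FPKM (S37A replicate 1) and 236 FPKM (vector replicate 2). Pmp22, a large part of that sum, was lowest in them too, at 158 FPKM and 134 FPKM. Ncam1, another large part, was lowest in S37A replicate 3 (100 FPKM) and vector replicate 1 (90.1 FPKM). Summed over 13 cartilage matrix genes the same libraries were again lowest, at 48.0 FPKM and 34.5 FPKM. Most of that was Col11a1, at 42.9 FPKM and 28.9 FPKM. These sums thus do not show glial or cartilage genes at large following Sox9. Within vector, the library highest in Sox9 was not the highest in the epithelial sum. Of 7 tested epithelial markers, limma called 0 higher and 0 lower, where it called 26.0% of all genes. None of the 7 had an unadjusted p under 0.05, and their median log2 difference was 0.04. Without S37A replicate 1, the setting in which Sox9 was called, the basal keratin gene Krt5 was called higher as well (log2 difference 0.41, limma adjusted p = 0.0375). Krt5 stood at 0.328, 1.09 and 0.950 FPKM in S37A libraries and at 0.416, 0.462 and 0.702 FPKM in vector libraries, lowest in S37A replicate 1. Other epithelial markers were at unlike levels. Cldn4 stood at 7.68 to 12.1 FPKM in S37A and 9.29 to 14.7 FPKM in vector. Its log2 difference was -0.20 (limma adjusted p = 0.457), opposite in sign to the 0.21 of Krt5 over all libraries (adjusted p = 0.378). Krt18 stood at 4.48 to 7.51 FPKM in S37A and 5.25 to 7.44 FPKM in vector. Cdh1 was low but present, at 0.565 to 1.31 FPKM in S37A and 0.697 to 1.20 FPKM in vector. The secretory marker Pbsn was listed at 0 in all libraries but S37A replicate 2. The part of epithelial cells in the Sox9 values was not tested.

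The level of Sox9 relative to other Sox genes of the same library separated the groups. Sox9 was 6.29%, 8.63% and 8.10% of Sox4 in S37A libraries and 5.15%, 3.85% and 5.32% in vector libraries. Its ratio to Sox12 was 1.24 to 1.92 in S37A and 0.695 to 1.11 in vector, and its ratio to Sox11 was 1.35 to 1.62 in S37A and 0.974 to 1.10 in vector. In none of these 3 ratios did the groups overlap. The ratios were looked at after the levels were known and are given as a description. All 3 share Sox9, and Sox4, Sox12 and Sox11 were each lower in every S37A library than in any vector library. The separation therefore follows in part from levels already given. The share of other gene pairs whose ratios part the groups was not counted. The ratios do not say which of the genes moved.

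**Figure D2:**
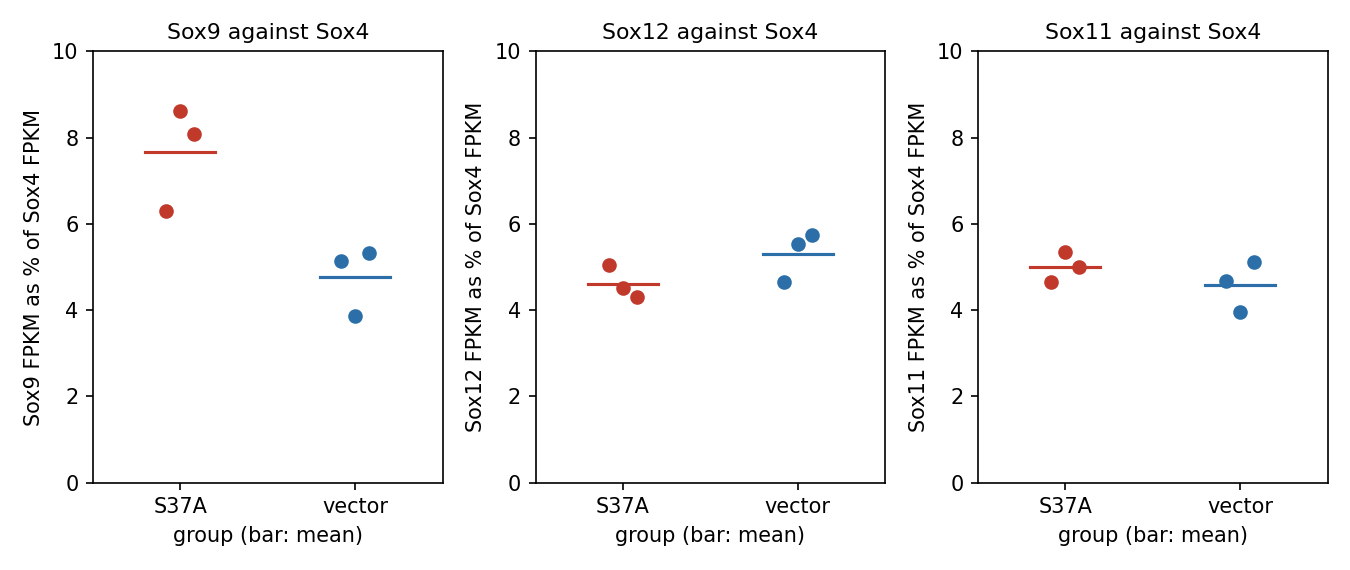
FPKM of Sox9, Sox12 and Sox11 as a percent of the Sox4 FPKM of the same library, in S37A and vector libraries, with a bar at each mean. The S37A libraries lie at 6.29% or more for Sox9 and all vector libraries at 5.32% or less, while the ranges for Sox12 and Sox11 overlap.

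Cartilage matrix genes that Sox9 regulates together with Sox5 and Sox6 were mostly close to absent. Of 15 listed, 13 were in the files and 5 were tested. Limma called 0 of the 5, where it called 26.0% of all genes, and 0 had an unadjusted p under 0.05. Their median log2 difference was 0.05, against -0.07 over all genes. Col11a1, a fibrillar collagen that fibroblasts also make, was the only abundant one, at 42.9, 47.1 and 46.4 FPKM in S37A libraries and 45.2, 28.9 and 37.6 FPKM in vector libraries (adjusted p = 0.142, and 0.0271 without vector replicate 1). Col10a1 averaged 2.28 FPKM in S37A and 2.49 FPKM in vector, and Col27a1 2.22 FPKM in S37A and 2.25 FPKM in vector. Col2a1 and Acan, the defining cartilage genes, were near 0. Col2a1 had a mean of 0.0183 FPKM in S37A and 0.0303 FPKM in vector. Acan had 0.00624 FPKM in S37A and 0.0111 FPKM in vector.

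Group D was low. Sox13, which can also bind TCF1, was the only tested member, on chromosome 1 from 133382303 to 133424377 (minus strand, protein-coding). Sox13 stood at 1.485, 1.452 and 1.547 FPKM in S37A libraries and at 1.703, 1.803 and 1.822 FPKM in vector libraries. Its groups were narrow and apart, with means of 1.49 ± 0.0485 FPKM in S37A and 1.78 ± 0.0637 FPKM in vector (SD, n = 3 each). The log2 difference of -0.15 (SE 0.05) just missed the threshold (limma adjusted p = 0.0514), passed it without the intensity trend (adjusted p = 0.0301), and was -0.08 under quantile normalization (adjusted p = 0.247).

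Sox5 and Sox6, which work with Sox9 in cartilage, stayed below the filter. Sox5 had 0.325, 0.369 and 0.319 FPKM in S37A libraries and 0.420, 0.414 and 0.323 FPKM in vector libraries, with overlapping groups. Sox6 had 0.153, 0.125 and 0.117 FPKM in S37A libraries and 0.105, 0.141 and 0.143 FPKM in vector libraries, so its means were nearly equal, at 0.132 FPKM in S37A and 0.130 FPKM in vector. With no filter limma gave adjusted p-values of 0.380 for Sox5 and 0.940 for Sox6. Which transcript model carried these sums was unsettled at this depth. The Sox5 model of 7079 bases held 95.1% of the S37A sum and 26.4% of the vector sum, but in vector replicates 1 and 3 it was listed at 0 and the model of 7331 bases held the whole value. Sox6 was given to 5 different models over the 6 libraries. Both genes are long (381 and 568 kb in the files) and overlap antisense annotations. Since strand is lost in this cDNA preparation, antisense reads cannot be separated from sense ones. The same limit holds for Sox4 and Sox17, which overlap Gm26735 and Gm37587 on the other strand.

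**Figure D3:**
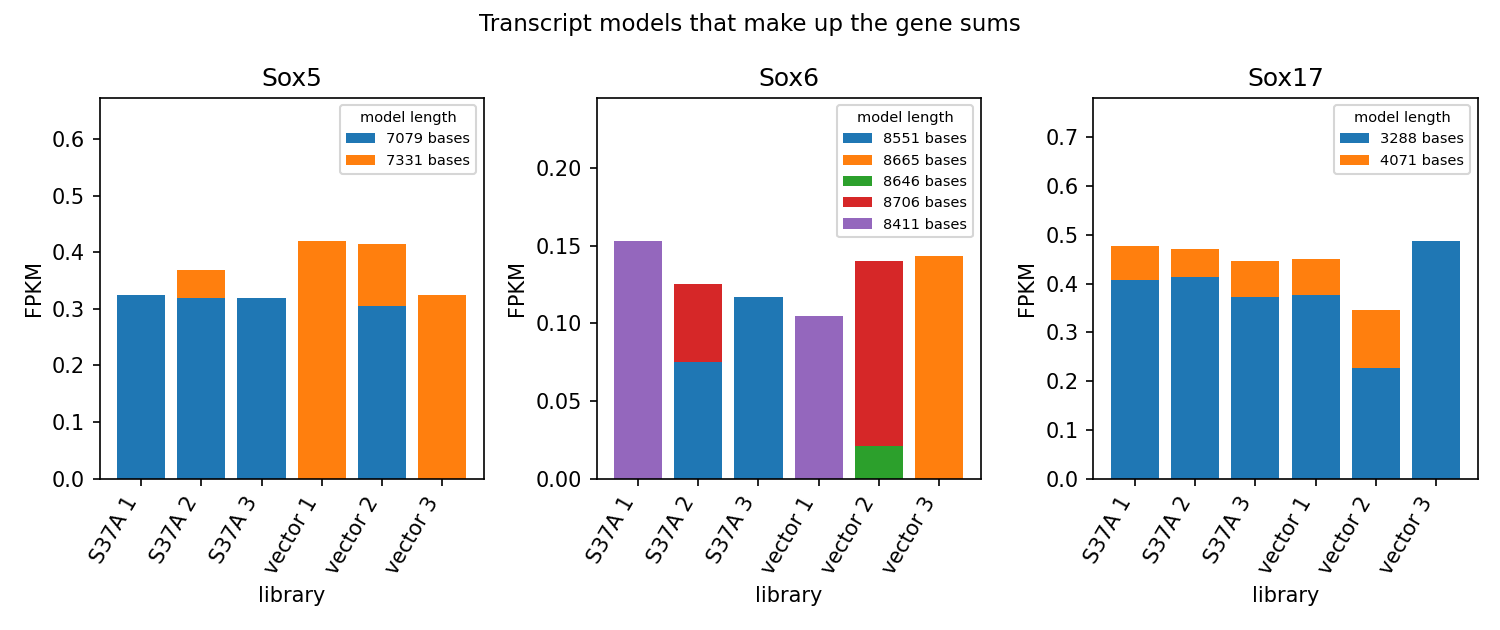
FPKM of each transcript model of Sox5, Sox6 and Sox17 in each library, stacked to the gene sum, with models named by their length in bases. For Sox5 and Sox6 the model listed changes between libraries of the same group, while the 3288-base model of Sox17 leads in all 6.

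Group F genes are known from endothelial cells, Sox18 from vessels and lymphatics and Sox17 from arteries and endoderm. Sox18, on chromosome 2 from 181669836 to 181671640 (minus strand, protein-coding), stood at 0.837, 0.765 and 0.832 FPKM in S37A libraries and at 0.960, 1.07 and 0.922 FPKM in vector libraries. The groups did not overlap, but the log2 difference of -0.13 (SE 0.05) did not pass (limma adjusted p = 0.109). Only 45.8 to 79.1 fragments lay behind a Sox18 value. Sox17, on chromosome 1 from 4490931 to 4497354 (minus strand, protein-coding), was below the filter at 0.477, 0.472 and 0.446 FPKM in S37A libraries and 0.451, 0.345 and 0.488 FPKM in vector libraries, with the groups overlapping (no-filter adjusted p = 0.574).

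Endothelial RNA was present in both groups. Over 18 markers the summed level was 131 to 135 FPKM in S37A and 135 to 150 FPKM in vector, and 16 were tested. Limma called 0 of the 16, where it called 26.0% of all genes. Of the 16, 1 was lower at an unadjusted p under 0.05, and their median log2 difference was -0.02. Emcn, a mucin of capillary and venous endothelium, made up most of the sum at 68.6 ± 1.61 FPKM in S37A and 76.1 ± 5.10 FPKM in vector (adjusted p = 0.0696, and 0.0317 without vector replicate 1), and Cdh5, the junctional cadherin of endothelium, stood at 15.7 ± 0.356 FPKM in S37A and 16.7 ± 0.600 FPKM in vector. Among other markers, Flt1 averaged 7.93 FPKM in S37A and 8.17 FPKM in vector. Pecam1 averaged 6.32 FPKM in S37A and 6.31 FPKM in vector, and Flt4 6.43 FPKM in S37A and 6.23 FPKM in vector. Some defining markers were low. Mean levels of the junction gene Cldn5 were 0.240 FPKM in S37A and 0.334 FPKM in vector. Vwf, the clotting factor that endothelium stores, averaged 0.709 FPKM in S37A and 0.740 FPKM in vector. The lymphatic factor Prox1 averaged 0.276 FPKM in S37A and 0.422 FPKM in vector, and the lymphatic receptor Lyve1 0.497 FPKM in S37A and 0.561 FPKM in vector. No endothelial marker was listed at 0 in any library. The part of endothelial cells in the Sox17 and Sox18 values was not tested.

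**Figure D4:**
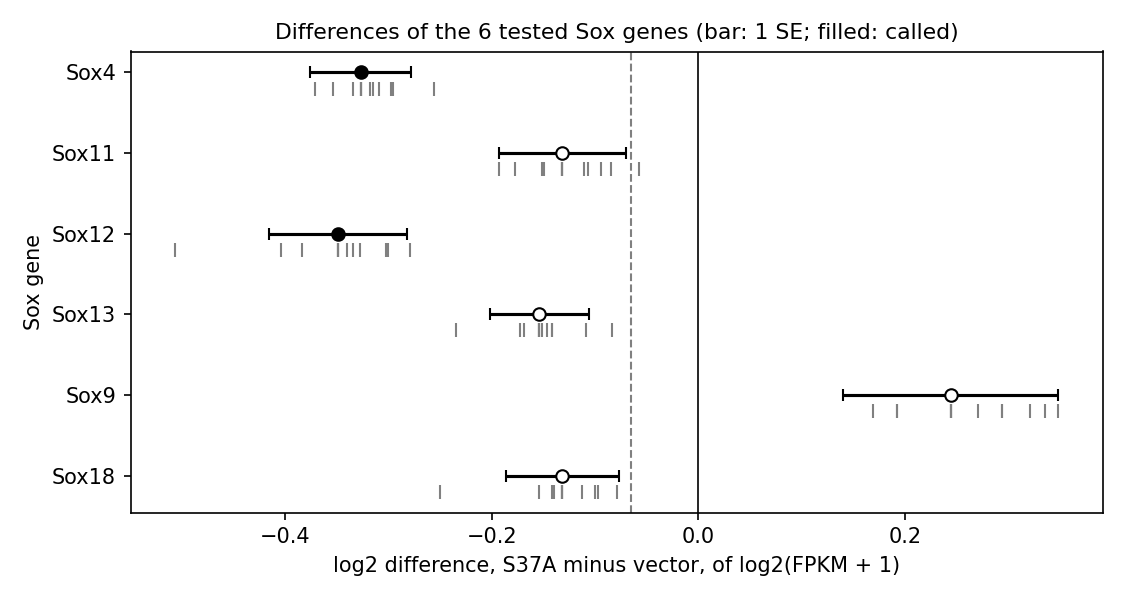
Log2 difference, S37A minus vector, of log2(FPKM + 1) for the 6 tested Sox genes with 1 SE, filled where called, over grey ticks for the 13 alternatives. The dashed line is the median of all tested genes at -0.07, and Sox4 and Sox12 lie left of it by 0.26 and 0.28 while Sox9 lies on the other side of 0.

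The order of the levels differed between the groups below Sox4 and above Sox13. In S37A the order of means was Sox4, Sox9, Sox11, Sox12, Sox13, Sox18, Sox17, Sox5 and Sox6, and in vector it was Sox4, Sox12, Sox9, Sox11, Sox13, Sox18, Sox17, Sox5 and Sox6. Neighbours from Sox12 to Sox13, and Sox17 and Sox5, had overlapping ranges in vector, as had Sox11, Sox12 and Sox13 in S37A, so their order is not settled beyond the spread. In both groups Sox4 exceeded all others, and Sox18 lay below Sox13 and above Sox17, in every library.

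Of the other 11 Sox family genes, Sox10 alone passed the filter. Sox10, a group E factor of glia, stood at 0.722, 0.889 and 0.884 FPKM in S37A libraries and at 0.790, 0.880 and 1.13 FPKM in vector libraries, with overlapping groups (adjusted p = 0.498). Of 10 glial markers 5 were tested, and limma called 0 of them, where it called 26.0% of all genes. Of the 5, 0 had an unadjusted p under 0.05, and their median log2 difference was 0.09. The summed level of all 10 was 265 to 278 FPKM in S37A and 236 to 262 FPKM in vector. Most of it came from Pmp22 and Ncam1, which other cells also make. Sry, Sox1, Sox3, Sox14 and Sox15 were listed at 0 in every library.

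Genes reported as targets of Sox4 or Sox11, partly in human prostate cancer cells, moved in both directions. Of 12 listed, 10 were tested, 3 fell, 1 rose and 6 did not pass, with a median log2 difference of -0.05 against -0.07 over all genes. Tead2, a Hippo pathway factor controlled by group C proteins in mouse embryos, fell to 12.4, 12.6 and 12.5 FPKM in S37A libraries, against 15.7 to 17.2 FPKM in vector libraries (log2 difference -0.38, limma adjusted p = 0.00395). Ezh2, the Polycomb methyltransferase, fell to 4.83, 4.55 and 5.04 FPKM in S37A, against 6.44, 7.88 and 7.07 FPKM in vector (log2 difference -0.48, adjusted p = 0.00770). Tnc, the matrix glycoprotein tenascin C, rose to 849 ± 14.9 FPKM in S37A, against 669 ± 23.4 FPKM in vector (adjusted p = 0.00355). Ptch1, the Hedgehog receptor, was at 1.36 ± 0.0739 FPKM in S37A and 2.02 ± 0.341 FPKM in vector (adjusted p = 0.0255), a fall not called without any 1 S37A library (adjusted p = 0.0525 to 0.0811), without a filter (adjusted p = 0.0544) or under quantile normalization (adjusted p = 0.0541). A list of 10 with 3 falls is near the 19.9% of all genes called lower.

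The TCF and LEF factors, which share the HMG fold with Sox proteins, included 2 genes that rose among 4 tested, where 6.06% of all genes were called higher. Of the 4, 0 fell and 2 did not pass, with 1 of these, Tcf7l1, lower at an unadjusted p under 0.05, and their median log2 difference was 0.16. Tcf7 stood at 2.01 ± 0.278 FPKM in S37A and 0.728 ± 0.129 FPKM in vector (adjusted p = 0.00353). Tcf7l2 stood at 6.09 ± 0.213 FPKM in S37A and 5.01 ± 0.180 FPKM in vector (adjusted p = 0.0135). That rise was not called without S37A replicate 2 (adjusted p = 0.0508) or replicate 3 (adjusted p = 0.0573), and its most abundant transcript model alone had a log2 difference of -0.27 (adjusted p = 0.727).

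The genes whose levels followed Sox4 and Sox12 most closely were found by the smallest root mean square difference between profiles of log2(FPKM + 1) over the 6 libraries, each centred on its own mean. For Sox4 these were Espn, an actin-bundling protein gene, and Hist1h2bj, a histone gene from a family of near-identical copies, both at 0.019 on the log2 scale. For Sox12 they were Dna2, a nuclease and helicase of DNA replication, at 0.011, and Dnmt3a, a DNA methyltransferase, at 0.018. Dnmt3a stood at 3.16, 2.76 and 2.80 FPKM in S37A libraries and at 3.71, 4.25 and 4.03 FPKM in vector libraries, with the groups apart as for Sox12. Espn averaged 0.49 FPKM in S37A and 0.84 FPKM in vector, and Dna2 0.50 FPKM in S37A and 0.92 FPKM in vector. In FPKM these falls were larger in proportion than those of Sox4 and Sox12. The match holds on the log2(FPKM + 1) scale, which understates the change of such low genes. Such closeness is a description over 6 libraries in 2 groups, picked out of 12022 genes.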

How the data were processed

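RNA behind the 6 libraries was amplified with a SMART-Seq kit (random and oligo(dT) priming), per the labels' protocols. The submitters' processing notes name mm10, Cufflinks, TopHat and bcl2fastq 1.8.3. Each of the authors' deposited files lists RefSeq transcript models with an FPKM, its confidence bounds, a length and a coverage signal, and this deposited coverage was a fixed multiple of FPKM within a library. Read counts were not used here. Depth was inferred from the interval widths of models of at least 5000 bases and covers counting error only.

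FPKM values were summed by symbol, leaving out 5 genes with a failed status. Limma 3.58.1 in R 4.3.3 compared the groups gene by gene on the scale log2(FPKM + 1), for means of 0.5 FPKM or more. The variance prior followed mean intensity, replicate numbers were ignored, and Benjamini-Hochberg adjusted p-values were read at 0.05. Fold changes on this scale understate changes of low genes. The script was tested on simulated data. The 13 alternatives are another pseudocount, filter, scaling (2 kinds), variance prior, replicate block and transcript model, and each library left out.

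Named genes are the 9 members, Ctnnb1 and Axin2, other Sox genes past the filter, up to 4 genes of each list with the smallest p, and the 2 nearest profiles of each called member. Col2a1, Acan, Pbsn, Cdh1, Aif1, Pecam1, Flt1, Flt4, Cldn5, Vwf, Prox1, Lyve1 and the Sox genes listed at 0 were added after their values were seen. Col27a1 was likewise added after its values were seen. The members and lists were chosen with earlier results of these data known. Promoters are from RefSeq (GRCm38.p6), positions and coding bases from GENCODE M21.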

Additional observations from a re-analysis of the deposited data

How the results depend on the processing

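No tested Sox gene changed direction under any alternative. Of 108 alternative values of the members' log2 differences, 102 kept their side of the threshold or moved by less than the replicate SD. Sox12 was not called without S37A replicate 3, its difference running from -0.40 to -0.30 as each library was left out. Sox9 was called without S37A replicate 1, running from 0.17 to 0.35. Sox13 was called without the intensity trend (-0.15, adjusted p = 0.0301). With a pseudocount of 0.1 the untested differences were -0.15 for Sox5 and 0.11 for Sox17, and the most abundant transcript model alone gave 0.27 for Sox5, against -0.05 for its sum. With 1 library left out, 0 to 1 members were called higher and 1 to 2 lower.

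Across all genes, 729 were higher and 2393 lower. Median-ratio scaling gave 1243 higher and 978 lower, quantile normalization 1094 and 957, and the most abundant model 1491 lower. With the replicate block 442 were higher and 1193 lower; it changed no call of a Sox gene. Same-numbered libraries correlated at -0.12, 0.0207 and 0.104 in their deviations, and differently numbered ones at -0.126 to 0.0974. No pairing by number was seen, but so few libraries cannot exclude one. Leaving out 1 library gave 298 to 747 higher and 606 to 2401 lower, both lowest without S37A replicate 3. The counts fell by more than 1.5 times without S37A replicate 2 or 3 or vector replicate 2 or 3, and for lower genes also without S37A replicate 1 (1373).

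Among lists, the most abundant model left 1 TCF/LEF gene higher, no filter gave 1 endothelial gene lower and 3 stromal genes higher, median-ratio scaling 1 glial gene higher and 0 stromal genes lower, and the replicate block 3 stromal genes higher. Leaving out 1 library gave 1 to 2 TCF/LEF, 0 to 1 cartilage, 0 to 1 glial, 0 to 1 epithelial (Krt5, without S37A replicate 1) and 3 to 8 stromal genes higher, and 0 to 2 endothelial and 0 to 1 stromal genes lower. The cause of these moves was not tested. Depth limits Sox5, Sox6, Sox17 and Sox18 most.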
